A study of Homo sapiens with 6 samples.

Results

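The E2F and RB family is the transcription switch that opens S phase. It was followed here through 10 genes: the activators E2F1, E2F2 and E2F3, the repressors E2F4, E2F7 and E2F8, the dimer partner TFDP1, and the pocket proteins RB1, RBL1 and RBL2. The genes were taken by symbol from a table of 60612 genes, and all 10 were among the 12000 genes tested, those whose FPKM averaged 1 or more (FPKM counts fragments per length of transcript and per depth of the library, so it can be compared between genes). RNA was sequenced from HCT116, an established human colorectal cancer line, after 2 days with a control siRNA (si NC, n = 3) or with an siRNA against PLOD3, a collagen lysyl hydroxylase (PLOD3 siRNA, n = 3). Both groups were the same line in the same medium, and the sources used here do not give the siRNA sequences, their number or their dose. The labels do not state whether replicates came from separate cultures, and p-values therefore reflect the spread of these samples alone, which may be technical.

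Activator E2Fs bind DNA as dimers with a DP protein such as TFDP1 and switch on genes for nucleotide synthesis and DNA replication. RB1 binds the activators and silences them until cyclin-dependent kinases phosphorylate it. E2F4 works mainly with RBL1 (p107) and RBL2 (p130), which join the MuvB proteins in the DREAM complex that keeps cell cycle genes off in resting cells. E2F7 and E2F8 bind DNA without a DP partner, repress E2F targets late in S phase, and are themselves E2F targets. RNA levels carry no information on phosphorylation or on protein.

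The promoters of several members carry the kind of site that the family itself binds, which is why these stretches are shown. The words TTTCCCGC, TTTCGCGC, TTTGCCGC and TTTGGCGC were searched on both strands in the 250 bases before each RefSeq start site (GRCh38.p14), and capitals mark a word or its reverse complement. Sequences run 5′ to 3′ on the gene's own strand.
E2F1, chr20:33686386-33686438, minus strand: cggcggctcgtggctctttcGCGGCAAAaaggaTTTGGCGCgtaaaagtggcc
E2F2, chr1:23531248-23531295, minus strand: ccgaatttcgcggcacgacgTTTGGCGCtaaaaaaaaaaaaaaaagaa
E2F3, chr6:20401806-20401853, plus strand: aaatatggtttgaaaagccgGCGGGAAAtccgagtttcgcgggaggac
RBL1, chr20:37095998-37096043, minus strand: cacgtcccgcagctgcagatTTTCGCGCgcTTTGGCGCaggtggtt
TFDP1, chr13:113584613-113584660, plus strand: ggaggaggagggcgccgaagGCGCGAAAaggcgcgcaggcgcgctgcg
A word stood in 5 of the 8 members with a usable window (62.5%), against 2.79% of all 35116 windows and 5.91% of the 8623 tested genes with a window. E2F1 and RBL1 each held 2 words, and the windows of E2F4, E2F7 and RBL2 held none of these words. E2F8 had no window to search, and that of RB1 lies inside the gene. A match describes the letters and not a bound site.

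PLOD3, the targeted gene, measured 6.40, 7.16 and 6.22 FPKM in si NC against 3.44, 3.40 and 4.05 in PLOD3 siRNA, which is 55.1% of the control mean (edgeR adjusted p = 0.0035). Its transcript has 61.7% GC, and its log2 fold change of -0.85 became -0.54 after GC correction (edgeR adjusted p = 0.00696). Of the exonic bases of PLOD3, 7.56% are shared with ZNHIT1 on the opposite strand (mean FPKM 8.21), and the strand setting is not stated. Summed counts per sample ran from 57457602 to 76802428 in si NC and from 55416555 to 71736017 in PLOD3 siRNA, and a member's count in a sample ran from 961 to 18203. The epithelial markers summed to 699 to 745 FPKM in si NC and 576 to 654 in PLOD3 siRNA, with KRT18, CDH1 and KRT19 lower among 7 tested (19.3% of all tested genes were lower). CDH1 lost its call after GC and length correction (edgeR adjusted p = 0.0509) and without si NC replicate 1 or 3 or PLOD3 siRNA replicate 1 or 2 (adjusted p from 0.0744 to 0.0871). KRT19 lost its call after GC correction (0.086, adjusted p = 0.301) and in each of the 6 fits that left out 1 sample (adjusted p from 0.0523 to 0.115). Fibroblast markers summed to 2.62 to 2.69 against 1.45 to 1.91 FPKM, with COL1A1 lower as the 1 tested gene (log2 fold change -0.50, lost after GC correction at an adjusted p of 0.212) and DCN and LUM at 0. Leukocyte markers summed to 0.865 to 1.74 against 1.72 to 1.77 FPKM with PTPRC and CD3E at 0, and endothelial markers to 0.110 to 0.315 against 0.152 to 0.163 FPKM with CDH5 at 0.

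With PLOD3 siRNA, 4 of the 10 members fell and 3 rose. E2F1, E2F3, E2F4 and TFDP1 were lower, and E2F7, E2F8 and RBL1 were higher, while E2F2, RB1 and RBL2 did not pass the test. Of all 12000 tested genes, 19.3% were called lower and 16.2% higher by the same test (edgeR quasi-likelihood, Benjamini-Hochberg adjusted p below 0.05). FPKM values of the groups did not overlap for 7 of the 10 members, against 52.1% of all tested genes. DESeq2 called 4 members lower and 3 higher, against 21.3% and 19.6% of all tested genes (40.9% in either direction, and 35.5% by edgeR). With 3 samples a group, the smallest p of an exact permutation test is 0.1, so the calls come from the fit across all genes. In bulk RNA, fewer cells of a type and less RNA per cell cannot be told apart.

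**Figure D1:**
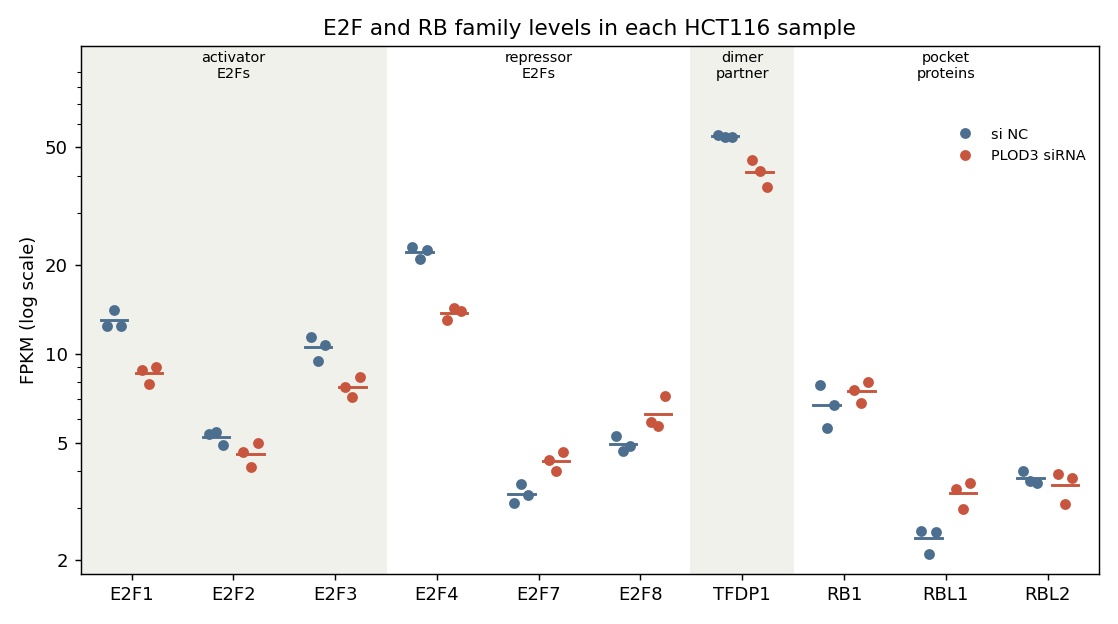
FPKM of each member in every sample on a log axis, blue for si NC and red for PLOD3 siRNA, with a bar at each group's mean. TFDP1 is the most abundant and RBL1 the least in both groups, and the groups do not overlap for 7 of the 10 genes.

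The activators are described first. E2F1 (ENSG00000101412, chr20:33675477-33686385), the activator most closely tied to RB1, measured 12.4, 14.1 and 12.4 FPKM in si NC and 8.80, 7.87 and 9.02 with PLOD3 siRNA. All 3 treated samples lay below all 3 controls, at 66.1% of the control mean. The log2 fold change was -0.60 (SE 0.0951, edgeR adjusted p = 0.00619). E2F3 (ENSG00000112242, chr6:20401879-20493714), an activator that also has a shorter isoform, gave 11.4, 9.41 and 10.7 FPKM in si NC and 7.70, 7.15 and 8.32 with PLOD3 siRNA. The groups were again apart (log2 fold change -0.44, SE 0.0836, edgeR adjusted p = 0.0105). E2F2 (ENSG00000007968, chr1:23506438-23531233) stood at 5.33, 5.42 and 4.91 FPKM in si NC and 4.66, 4.14 and 4.97 with the siRNA. Its groups overlapped through the third treated sample, and the log2 fold change of -0.18 (SE 0.0893) did not pass (edgeR adjusted p = 0.151).

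The repressors split. E2F4 (ENSG00000205250, chr16:67192155-67198918), the E2F of the DREAM complex and the most abundant E2F here, measured 22.9, 21.0 and 22.4 FPKM in si NC and 12.98, 14.3 and 13.9 with PLOD3 siRNA. All 3 treated samples lay below all 3 controls, at -0.68 on the log2 scale (SE 0.0779, edgeR adjusted p = 0.00287). The atypical E2F7 (ENSG00000165891, chr12:77021248-77065569) gave 3.12, 3.62 and 3.33 FPKM in si NC and 4.36, 4.01 and 4.64 with PLOD3 siRNA. Each treated sample lay above each control (log2 fold change 0.37, SE 0.0978, edgeR adjusted p = 0.0287). Its close relative E2F8 (ENSG00000129173, chr11:19224063-19241620) stood at 5.25, 4.67 and 4.86 FPKM in si NC against 5.89, 5.68 and 7.17. The groups did not overlap, with the third treated sample the highest (log2 fold change 0.34, SE 0.102, edgeR adjusted p = 0.0411). These calls were the least secure of the family: E2F8 lost its call in each of the 6 fits that left out 1 sample (adjusted p from 0.0601 to 0.108). E2F7 lost its call without si NC replicate 1 or 3 or PLOD3 siRNA replicate 1 or 3 (adjusted p from 0.0696 to 0.0795).

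TFDP1 (ENSG00000198176, chr13:113584721-113641473), the main DP partner of the E2Fs, was the most abundant member. It measured 54.8, 53.9 and 54.3 FPKM in si NC and 45.3, 41.6 and 36.7 with PLOD3 siRNA. The controls lay within 1 FPKM of each other and the treated samples were spread more widely, all below them. The log2 fold change was -0.39 (SE 0.0924, edgeR adjusted p = 0.0197), and the call was lost without si NC replicate 2 (adjusted p = 0.0519) or replicate 3 (adjusted p = 0.0634).

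Of the pocket proteins, RBL1 alone passed the test. RBL1 (ENSG00000080839, chr20:36996349-37095997), itself an E2F target, measured 2.51, 2.11 and 2.50 FPKM in si NC and 3.48, 2.98 and 3.64 with PLOD3 siRNA. The groups were apart, with a treated mean at 142% of control (log2 fold change 0.51, SE 0.104, edgeR adjusted p = 0.0128). RB1 (ENSG00000139687, chr13:48303744-48599436), the retinoblastoma protein, gave 7.82, 5.59 and 6.69 FPKM in si NC and 7.56, 6.80 and 7.998 with the siRNA. Its groups overlapped (log2 fold change 0.16, SE 0.117, edgeR adjusted p = 0.322). RBL2 (ENSG00000103479, chr16:53433977-53491648), the pocket protein of resting cells, stood at 3.998, 3.71 and 3.65 FPKM against 3.90, 3.09 and 3.79. The groups overlapped here too (log2 fold change -0.07, SE 0.0954, edgeR adjusted p = 0.585). Of its exonic bases, 8.33% are shared with AKTIP on the opposite strand (mean FPKM 2.69), and reads of the pair cannot be told apart without a stated strand setting.

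Ranked by FPKM, the si NC order was TFDP1, E2F4, E2F1, E2F3, RB1, E2F2, E2F8, RBL2, E2F7 and RBL1, and E2F2 and E2F8 were the 1 pair of neighbours whose samples overlapped. In PLOD3 siRNA the top 5 kept their places, E2F8 stood above E2F2 and E2F7 above RBL2. There, E2F1 overlapped with E2F3, E2F3 with RB1, RB1 with E2F8, E2F2 with E2F7, and RBL2 with RBL1.

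Ratios within a sample do not depend on the scaling between samples, and they set activators against repressors. Such ratios are not corrected for the GC content of the transcripts, which is 62.5% for E2F1, 43.1% for E2F7 and 45.9% for E2F8 and is taken up below. E2F1 to E2F7 stood at 3.96, 3.89 and 3.73 in the controls and at 2.02, 1.97 and 1.95 with PLOD3 siRNA. E2F1 to E2F8 gave 2.36, 3.01 and 2.56 against 1.49, 1.39 and 1.26, and E2F3 to E2F8 gave 2.17, 2.01 and 2.20 against 1.31, 1.26 and 1.16. Each of these ratios was thus lower in every treated sample than in any control. The E2F1 to E2F4 ratio, an activator against the DREAM repressor, was 0.541, 0.670 and 0.556 against 0.678, 0.550 and 0.649 and overlapped. RBL1 to RBL2 was 0.628, 0.568 and 0.684 against 0.893, 0.963 and 0.962, without overlap.

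**Figure D2:**
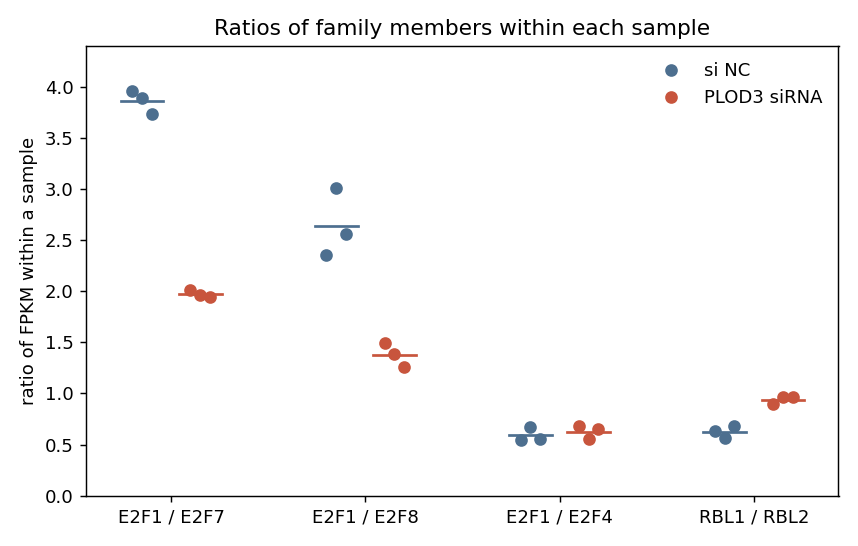
Ratio of FPKM between members within each sample for 4 pairs, blue for si NC and red for PLOD3 siRNA, with a line at each group's mean. E2F1 to E2F7 lies near 4 in the controls and near 2 in the treated samples, while E2F1 to E2F4 overlaps between the groups. The ratios are not corrected for GC content.

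The summed E2F messages were lower in each treated sample than in any control, and their make-up differed. E2F1 to E2F8, the uncertain E2F6 included, summed to 69.8, 62.2 and 67.2 FPKM in si NC and to 49.0, 52.1 and 53.1 with PLOD3 siRNA. E2F4 made up 32.8, 33.7 and 33.3% of that sum in the controls and 26.5, 27.5 and 26.2% in the treated samples. E2F7 and E2F8 together made up 12.01, 13.3 and 12.2% against 20.9, 18.6 and 22.2%. The share of E2F1 to E2F3 overlapped, at 41.7, 46.4 and 41.7% against 43.1, 36.8 and 42.1%. That share moves with E2F6 in the sum, which measured 7.20, 2.14 and 6.34 against 2.58, 6.83 and 2.86 FPKM. The overlap therefore cannot show that the activators kept their share, and a share without E2F6 was not computed. The summed FPKM of E2F1 to E2F3 itself was lower in every treated sample than in any control. The mean log2 FPKM of the 3 activators minus that of the 3 repressors was 0.33, 0.34 and 0.28 in si NC and -0.03, -0.16 and -0.10 with PLOD3 siRNA, a difference of -0.42. It was -0.76 without E2F4, -0.23 without E2F7 and -0.25 without E2F8. These sums and scores are descriptions without a test, since the members were chosen with results known.

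Fold changes in these samples followed the GC content of the transcript across all genes, and the members sit at different points of that trend. The tested genes were split into 4 bins of 2992 by GC content. In the bin lowest in GC (23.1 to 42.3%), the median log2 fold change was 0.27, with 32.8% called higher and 2.84% lower. In the bin highest in GC (56.6 to 78.7%) it was -0.32, with 2.91% higher and 39.9% lower. E2F1 (62.5% GC), E2F4 (59.3%) and E2F2 (57.5%) lie in the highest bin. RB1 (37.3%) and RBL1 (40.0%) lie in the lowest. The second bin, whose median was 0.11, holds E2F7 (43.1%), RBL2 (43.2%), E2F3 (45.2%), E2F8 (45.9%) and TFDP1 (46.6%). E2F3 and TFDP1 therefore fell against the direction of genes with the same GC content.

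**Figure D3:**
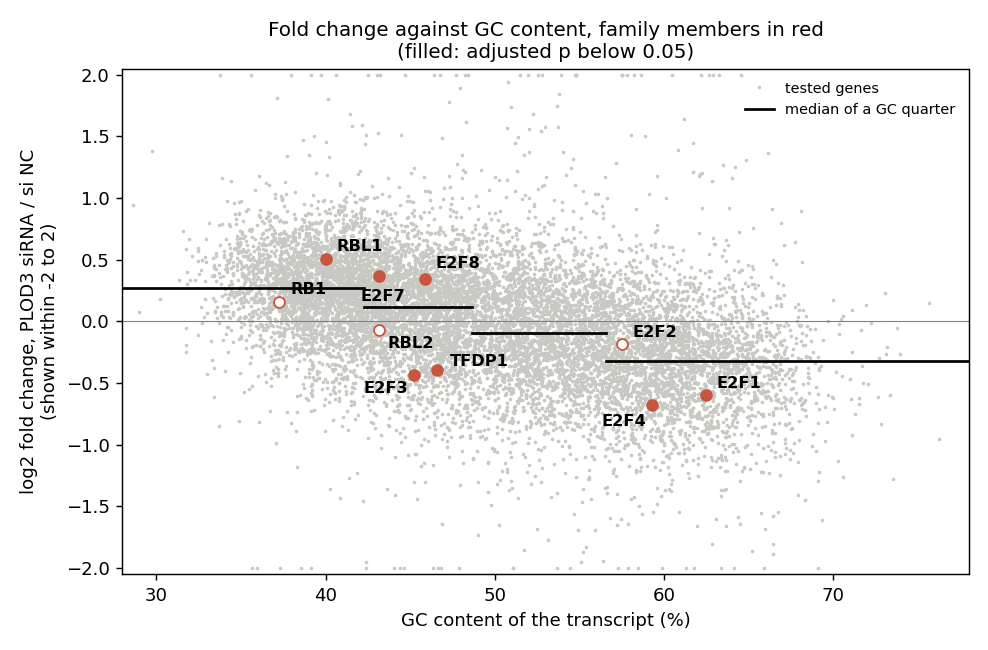
Log2 fold change of each tested gene (grey points, drawn within -2 to 2) against the GC content of its transcript in percent, with the median of each of 4 GC bins as a black line and the members in red, filled where the adjusted p was below 0.05. The medians step down from 0.27 to -0.32, and E2F3 and TFDP1 lie below their bin's median of 0.11.

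With the GC trend removed in the model, the 4 falls passed the test and the 3 rises did not. E2F1 moved from -0.60 to -0.26 (edgeR adjusted p = 0.0348) and E2F4 from -0.68 to -0.42 (adjusted p = 0.0161). E2F3, at -0.52 (adjusted p = 0.00592), and TFDP1, at -0.44 (adjusted p = 0.016), were as low as before. E2F7 stood at 0.22 (adjusted p = 0.204), E2F8 at 0.27 (adjusted p = 0.0838) and RBL1 at 0.28 (adjusted p = 0.0602). By this fit 14.5% of all tested genes were called lower and 12.8% higher. When transcript length was corrected as well, RBL1 passed again at 0.40 (adjusted p = 0.0117) and E2F7 and E2F8 did not (adjusted p = 0.0708 and 0.0504), beside 13.3% of all tested genes lower and 14.1% higher. Among pairs of like GC content, E2F3 minus E2F8 in log2 fold change was -0.78 before and -0.80 after GC correction, E2F3 minus E2F7 was -0.81 and -0.74, and E2F1 minus E2F4 was 0.08 and 0.16. In pairs of unlike GC content, E2F1 minus E2F7 went from -0.96 to -0.48 and E2F1 minus E2F8 from -0.94 to -0.54. How much of each difference belongs to the PLOD3 siRNA and how much to the GC trend cannot be told apart from these samples.

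**Figure D4:**
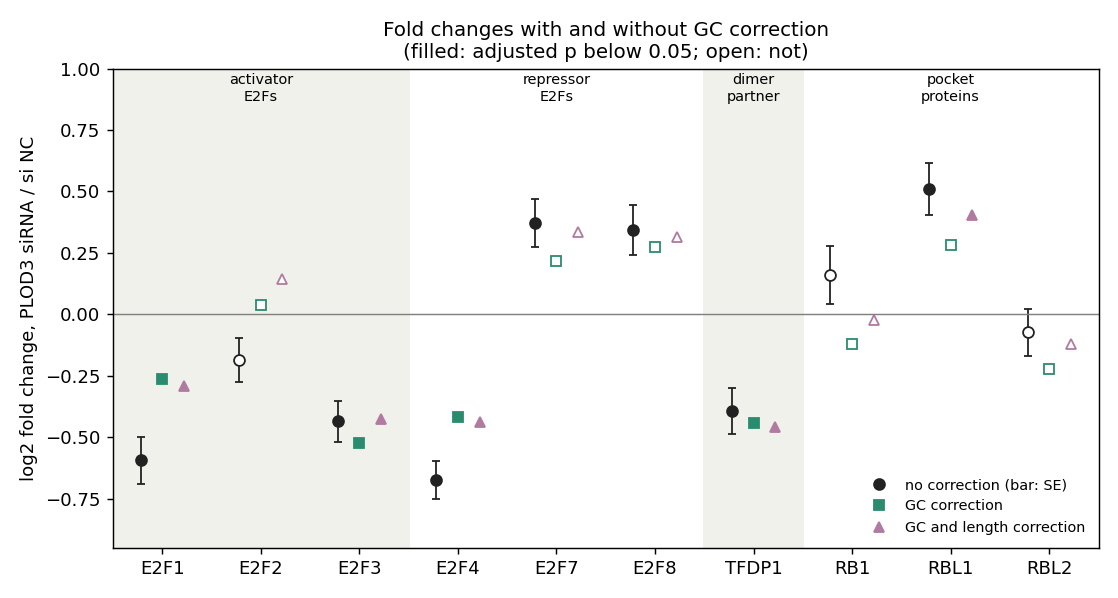
Log2 fold change of each member in PLOD3 siRNA against si NC without correction, with the GC correction and with the GC and length correction, filled where the adjusted p was below 0.05. The 4 falling members stay filled under each fit, and E2F7 and E2F8 are filled without correction only.

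The other E2F and DP genes were E2F5, E2F6, TFDP2 and TFDP3, and 1 of the 3 that were tested passed. TFDP2, the second DP partner, fell as TFDP1 did, from 5.36, 5.01 and 5.67 to 4.27, 3.60 and 3.92 FPKM (log2 fold change -0.44, edgeR adjusted p = 0.00887; after GC correction -0.48, adjusted p = 0.00738). E2F5, a second partner of the pocket proteins, stood at a mean of 2.13 ± 0.168 against 2.11 ± 0.0623 FPKM (SD, n = 3; edgeR adjusted p = 0.94), and 16.3% of its exonic bases are shared with C8orf59 on the opposite strand. E2F6, a repressor that needs no pocket protein, varied widely within both groups, at 7.20, 2.14 and 6.34 FPKM in si NC and 2.58, 6.83 and 2.86 with PLOD3 siRNA (edgeR adjusted p = 0.68). Pseudogenes of E2F6 are listed with reads (E2F6P1 at a mean FPKM of 3.87), so its level is uncertain. TFDP3 was listed at 0 in all 6 samples.

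Partners of the pocket proteins are given beside the 16.2% of all tested genes called higher and the 19.3% called lower. Among the 7 genes of the MuvB core with MYBL2 and FOXM1, 2 rose and 0 fell by edgeR (0 fell at an unadjusted p below 0.05, and 0 by DESeq2 or limma on FPKM or TPM). The genes that rose were LIN9, a MuvB subunit, from 2.35, 1.66 and 2.30 to 3.89, 3.89 and 3.62 FPKM (log2 fold change 0.86, adjusted p = 0.00733), and the DNA-binding subunit LIN54 (0.45, adjusted p = 0.0164; after GC correction 0.20, adjusted p = 0.12; also lost without si NC replicate 3, adjusted p = 0.0548, or PLOD3 siRNA replicate 1, adjusted p = 0.0531). MYBL2 and FOXM1, activators that work with MuvB, are named after their values were seen: MYBL2 had a log2 fold change of -0.05 (edgeR adjusted p = 0.714) and FOXM1 of -0.21 (adjusted p = 0.292). MYBL2 passed as higher after GC correction, at 0.24 (adjusted p = 0.0253). Of 9 tested chromatin corepressors that pocket proteins recruit, the deacetylase HDAC2 rose (0.35, edgeR adjusted p = 0.019), and the remodeller SMARCA4 (-0.27, adjusted p = 0.032) and the scaffold SIN3A (-0.26, adjusted p = 0.0475) fell. After GC correction HDAC2 and SMARCA4 did not pass (adjusted p = 0.302 and 0.603), and after GC and length correction SMARCA4 passed as higher (0.16, adjusted p = 0.0347). SIN3A was not called in 13 of 19 alternatives, among them each fit without 1 sample other than PLOD3 siRNA replicate 3 (adjusted p from 0.0534 to 0.148). SMARCA4 was not called in 11 of 19, among them the fits without si NC replicate 2 or 3 or PLOD3 siRNA replicate 1 or 2 (adjusted p from 0.0647 to 0.0992). HDAC2 lost its call without si NC replicate 3 (adjusted p = 0.0594) or PLOD3 siRNA replicate 1 (adjusted p = 0.069).

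Upstream of RB1, 1 of 7 tested G1 cyclins and kinases rose (14.3%) and 0 fell by edgeR (0 at an unadjusted p below 0.05, and 0 by DESeq2 or limma on FPKM or TPM), against 16.2% and 19.3% of all tested genes. CCNE2, cyclin E2, is an E2F target as well as an activator of CDK2, and went from 2.34, 1.87 and 2.17 to 3.57, 3.34 and 3.36 FPKM (log2 fold change 0.69, edgeR adjusted p = 0.00552). With the GC correction CCNE2 stood at 0.40 (edgeR adjusted p = 0.014). CCND1 (-0.16, adjusted p = 0.11), CCNE1 (-0.17, adjusted p = 0.275) and CDK4 (0.32, adjusted p = 0.316) did not pass. With quantile normalization CCND1 was called lower (-0.29, limma adjusted p = 0.0242). Among 7 CDK inhibitors, 2 fell and 0 rose by edgeR (0 at an unadjusted p below 0.05, and 0 by DESeq2 or limma on FPKM or TPM): CDKN1C, or p57, at -0.93 (adjusted p = 0.00561) and CDKN2B, or p15, at -0.87 (adjusted p = 0.0118). After GC correction 2 fell and 2 rose by edgeR. CDKN1C then stood at -0.57 (adjusted p = 0.0238) and CDKN2B at -0.98 (adjusted p = 0.0126). CDKN2C, or p18, went from 0.23 (adjusted p = 0.211) to 0.47 (adjusted p = 0.0227). CDKN2D, or p19, named after its values were seen, went from 0.30 (adjusted p = 0.218) to 0.61 (adjusted p = 0.0318).

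PLOD3 siRNA replicate 2 stood apart from the other treated samples at a pair of regulators, both named after their values were seen. CDKN1A, the inhibitor p21, measured 61.1, 66.8 and 59.3 FPKM in si NC and 26.8, 116 and 29.2 with PLOD3 siRNA (edgeR adjusted p = 0.916; without that replicate a log2 fold change of -1.17, adjusted p = 0.00755). MYC, which activates E2F genes and represses CDKN1A, measured 4.01, 5.01 and 4.17 against 37.5, 3.14 and 38.9 FPKM. Its log2 fold change was 2.57 (edgeR adjusted p = 0.0487) and 3.09 without that replicate (adjusted p = 0.00333), and the call was lost without any 1 of the other 5 samples (adjusted p from 0.113 to 0.121) and after GC correction (adjusted p = 0.0554). The calls of 6 members held without it: leaving out that replicate, E2F1 had a log2 fold change of -0.56 (adjusted p = 0.0218), E2F3 of -0.41 (adjusted p = 0.0358), E2F4 of -0.73 (adjusted p = 0.00941), TFDP1 of -0.43 (adjusted p = 0.0366), E2F7 of 0.40 (adjusted p = 0.0491) and RBL1 of 0.57 (adjusted p = 0.0235). E2F8, at 0.39, did not pass without it (adjusted p = 0.0601).

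Many genes that the family controls rose. Of 54 tested E2F targets of the G1/S transition, 29 rose (53.7%, against 16.2% of all tested genes) and 0 fell by edgeR (3 were lower at an unadjusted p below 0.05, and 0 by DESeq2 or limma on FPKM or TPM). The list's median log2 fold change was 0.28, against 0.0034 over all tested genes, and 37 of the 54 were above 0. After GC correction 26 rose and 0 fell, against 12.8% and 14.5% of all tested genes, with a median of 0.30. RRM1, the large subunit of ribonucleotide reductase, went from 34.4, 31.6 and 30.8 to 52.4, 54.0 and 49.4 FPKM (log2 fold change 0.69, edgeR adjusted p = 0.00273). The replication factors MCM10 (0.76), RFC5 (0.59) and POLA1 (0.53) had adjusted p from 0.00268 to 0.0039. Leaving out 1 sample gave between 19 (without si NC replicate 3) and 27 higher. MCM3 was called lower when only genes averaging 5 FPKM or more were tested (-0.24) and with quantile normalization (-0.31). It is named after its values were seen.

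Of 42 tested G2/M genes that MuvB, MYBL2 and FOXM1 control, 31 rose by edgeR (73.8%, against 16.2% of all tested genes). In the same fit 0 fell, against 19.3% of all tested genes. At an unadjusted edgeR p below 0.05, 1 was lower, and DESeq2 and limma on FPKM or TPM called 0 lower. The median log2 fold change was 0.55, and 0.37 after GC correction. After that correction 27 rose and 0 fell, against 12.8% and 14.5% of all tested genes. CCNA2, cyclin A2, went from 27.6, 27.2 and 26.1 to 48.9, 47.2 and 48.1 FPKM (0.84, edgeR adjusted p = 0.00163). HMMR, a spindle protein, had a log2 fold change of 1.11, the checkpoint kinase TTK of 0.95 and the checkpoint kinase BUB1 of 0.73. Among the genes of E2F-linked apoptosis, BCL2L11, or BIM, which promotes cell death, fell (log2 fold change -0.61, edgeR adjusted p = 0.0188). The call was lost without si NC replicate 1 (adjusted p = 0.0518) or replicate 3 (adjusted p = 0.0539). The lists were written with earlier results of these data known, so their counts are descriptions.

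**Figure D5:**
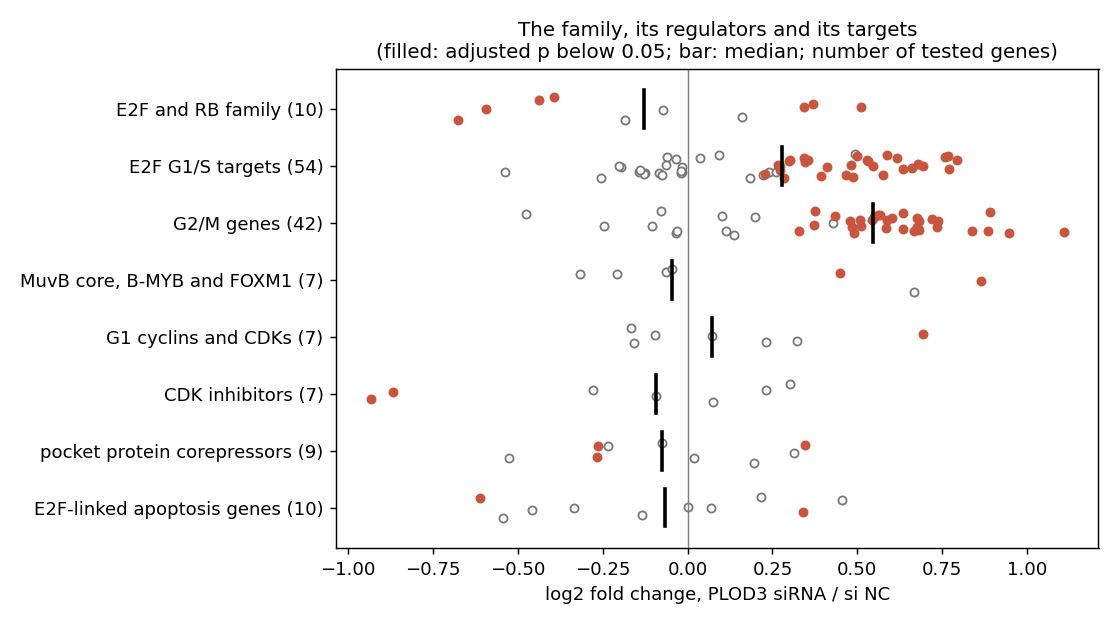
Log2 fold change of each tested gene of the family, of its regulators and of its targets, one row per list with the number of tested genes, filled where the adjusted p was below 0.05 and with a bar at the median. The medians of the G1/S and G2/M lists lie at 0.28 and 0.55, and the family's own genes lie on both sides of 0.

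The promoter words bear on both the members and the targets. Of the 5 members printed above, E2F1, E2F3 and TFDP1 fell, RBL1 rose and E2F2 did not pass, so members with a word moved in both directions. A word stood in 19 of the 47 G1/S genes with a window (40.4%) and in 3 of the 36 G2/M genes (8.33%). CHR words (TTTGAA or TTCGAA), the kind that MuvB binds, stood in 23 of those 36 (63.9%). They stood in 17.2% of all genes with a window and in 12.6% of the tested genes with one. Counted by window and not by gene, the share was 14.3%. Among the tested genes with a window, the 510 with an E2F word were called higher in 20.2% and lower in 15.5%, and the 8113 without one in 16.7% and 20.8%. After GC correction these were 15.9% and 11.6% with a word and 13.2% and 15.6% without.

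The genes whose log2 CPM (counts scaled to the library's depth) most resembled that of a member were listed over the 6 samples, among 5632 protein-coding genes averaging 5 FPKM or more. For E2F1 they were ILRUN (Pearson r = 0.9987), GRB7 (0.9985), RNF187 (0.9977), MTA1 (0.9976) and SYNGR2 (0.9976). For E2F8 they were TXNRD1 (0.983), RAB9A (0.982), DDX5 (0.978), SEH1L (0.974) and BAZ1A (0.972). The points share their libraries and a difference between groups, so these values are a description and carry no test.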

How the data were processed

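The authors deposited 1 table of 60612 genes with an FPKM and a count per sample. FPKM were deposited by the authors without scaling between samples, per the file headers. The deposited counts are unnormalized estimated counts in whole numbers, per the file headers. Trimming, alignment and assembly tools named in the submitters' processing notes are cutadapt 1.9, HISAT2 2.0.4 and StringTie 1.3.4d. Genome build, annotation, strand setting and counting method were not given in the sources used here. Coordinates were read as GRCh38, since 96.3% of gene identifiers were found in the annotation of that build and 99.8% of those overlapped their position. Groups and replicate numbers came from the sample titles.

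Genes averaging 1 FPKM or more were tested with edgeR 4.0.16 in R 4.3.3 (quasi-likelihood, TMM, trended dispersion, two-sided, Benjamini-Hochberg at 0.05 over 12000 genes), with all 6 samples and no covariate. Log2 fold changes are PLOD3 siRNA over si NC. Low counts pile up at multiples of 4, so a count is not 1 read pair; dividing by 4 was an alternative. Others were limma 3.58.1 on log2(FPKM + 1), log2(FPKM + 0.1) and log2(TPM + 1), quantile normalization, DESeq2 1.42.0, RLE size factors, other filters, GC and length corrections (loess, span 0.5), a replicate block and leaving out each sample. The script was tested on simulated data with 200 changed genes. GC content came from the annotated transcripts, and 11968 tested genes and 10 of 10 members had a value.

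The members and gene lists were chosen with earlier results of these data known. Genes were named by rule: all members, PLOD3, the other E2F and DP genes, up to 4 genes per list with the smallest p, members of any count of 5 or fewer, and the 5 genes most like E2F1 and E2F8. Some genes that meet this rule are not reported here. Promoter windows were RefSeq's. RB1's lies 172706 bases inside the gene and was not used, and E2F8 had none. Protein sequences were not used here.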

Additional observations from a re-analysis of the deposited data

How the results depend on the processing

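All 4 falls of the family (E2F1, E2F3, E2F4, TFDP1) and the 3 rises (E2F7, E2F8, RBL1) kept their direction under every alternative run. Calls were lost on both sides. E2F1, E2F3 and E2F4 each lost theirs in 1 of 19 alternatives and TFDP1 in 3 of 19. RBL1 lost its call in 2 of 18, E2F7 in 8 of 18 and E2F8 in 14 of 19. Genes called higher and lower numbered 1945 and 2319, against 1192 and 1354 at a mean FPKM of at least 5 (6095 genes tested), 2470 and 1461 on TPM, and 1083 to 1651 higher and 1509 to 2011 lower when 1 sample was left out. The lowest of these were without PLOD3 siRNA replicate 1 (1083 higher) and without si NC replicate 3 (1509 lower, 1106 higher). Members called higher numbered 0 at a mean FPKM of at least 5 (fewer were tested), 0 with the GC correction, 1 with the GC and length correction and 1 to 2 with 1 sample left out; members called lower numbered 2 on TPM and 3 to 4 with 1 sample left out. G1/S targets called lower numbered 1 at a mean FPKM of at least 5, 1 with quantile normalization and 0 to 1 with 1 sample left out, and those called higher 19 to 27.

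The labels do not say whether replicate numbers pair the samples. Correlations of same-numbered deviations from the group means were 0.0486, -0.0107 and -0.023. With 3 samples a group, such values cannot show pairing or its absence. The replicate block gave 1471 genes higher and 1834 lower and 1 member higher, with E2F7 at 0.37 and E2F8 at 0.34 not called. The replicate block with the GC correction gave 1060 higher and 1211 lower, 0 members higher and 2 lower, with E2F1 at -0.26, E2F4 at -0.42, E2F7 at 0.22, E2F8 at 0.27 and RBL1 at 0.28 not called, and E2F2 at 0.035, RB1 at -0.12, SMARCA4 at 0.039, KRT19 at 0.086 and MYBL2 at 0.24 turned in sign.

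Calls of members lost elsewhere were E2F3 (-0.32) and TFDP1 (-0.30) on TPM; E2F7 with GC (0.22) and GC and length correction (0.34) and 0.31 to 0.44 with 1 sample left out; RBL1 with GC correction (0.28); and E2F8 without the FPKM filter (0.36), at a mean FPKM of at least 5 (0.30), by limma with a pseudocount of 1 (0.29) or 0.1 (0.33), with GC (0.27) and GC and length correction (0.32), and with 1 sample left out (0.25 to 0.39). TFDP1 ran from -0.45 to -0.30 with 1 sample left out. Of the other named genes called by edgeR, MYC lost its call in 14 of 19 alternatives, SIN3A in 13, KRT19 in 12, CDH1 in 6 and HDAC2 in 4; BCL2L11, COL1A1 and LIN54 in 4 of 18; TFDP2 (on TPM), CCNE2 and CDKN1C (both with the replicate block and GC correction) in 1 of 18; and KRT18 (with that block and correction) in 1 of 19. SMARCA4 was called lower in 7 of 19 and higher in 1. Signs turned for genes that were not called: E2F2 (GC 0.036; GC and length 0.14), RB1 (GC -0.12; GC and length -0.022), RBL2 (TPM 0.022; -0.12 to 0.0035 with 1 sample left out), E2F5 (no filter 0.0049, TPM 0.077, quantile 0.065, and -0.058 to 0.042 with 1 sample left out), FOXM1 (GC and length 0.0017), MYBL2 (TPM 0.058; GC 0.24; GC and length 0.23; -0.097 to 0.045 with 1 sample left out) and CDKN1A (GC 0.14; GC and length 0.072; 0.26 and 0.23 without PLOD3 siRNA replicates 1 and 3, and -1.17 without replicate 2). SMARCA4 turned with GC (0.040) and GC and length correction (0.16), and KRT19 with GC correction (0.086). The cause of these changes was not tested. The lowest count of a member in a sample was 961, and how much counting and the spread between samples each add to the error was not tested.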
